A study of Mus musculus with 10 samples.

Results

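The Dlk1-Meg3 imprinted locus of murine chromosome 12 was followed through spatial transcriptomes of the ABC-Myc model of hepatoblastoma, the embryonal liver tumour of early childhood. Its 4 genes were taken by symbol from the list of 31053 genes counted in each section. Dlk1, Meg3 and Mirg matched a row, and Rian matched none and was not analysed here, so 3 of 4 members are described. The series held 10 sections of 7 tissues, 4 of them from NEJ146 and 1 from each other tissue (NEJ634, NEJ638, NEJ654, NEJ677, NEJ687 and NEJ723). The sections were 10 µm thick, cut from frozen C57BL/6J material and placed on Visium slides, on which each barcoded spot of 55 µm can cover several cells. Tumours came from mice in which Cre recombinase, driven by the albumin enhancer and promoter, removed a stop cassette in front of a CAG-driven human MYC transgene, and controls were littermates without 1 or both alleles. All samples carry the same hepatoblastoma label, and only NEJ146 is labelled as cut from a tumour. The text of the study names NEJ146, NEJ634, NEJ687 and NEJ723 as tumours and speaks of 3 healthy livers without naming them. Ages of these mice are not given in the labels, and the human transgene has no row of its own.

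Imprinted genes are expressed from the copy inherited from 1 parent. Dlk1, a membrane protein related to the Notch ligands that is made by fetal liver progenitors (hepatoblasts), is read from the paternal chromosome, whereas the long noncoding RNAs Meg3, Rian and Mirg are read from the maternal chromosome, and methylation of a shared control region decides which side is active. The maternal transcripts carry many microRNAs and small nucleolar RNAs. The locus is active in the embryo and mostly silent in adult liver, and its activity is known to mark a group of human liver tumours. The counts do not separate the parental copies, so sharing of a spot by Dlk1 and Meg3 says nothing of allele use within a cell.

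On GRCm38 (GENCODE vM21) the 4 genes lie on the plus strand in the order Dlk1, Meg3, Rian and Mirg. Dlk1, a protein-coding gene, spans chr12:109452823-109463336. Meg3 spans chr12:109541001-109571726, Rian chr12:109603940-109661716 and Mirg chr12:109729764-109749460. The gaps between neighbouring genes are 77664, 32213 and 68047 bases. A short antisense gene, Gm26906, overlaps Meg3 and had 29 UMIs in all sections together. The sequences just upstream of the Dlk1 and Meg3 starts are shown because these are the ends from which the paternal and the maternal transcript begin. They are RefSeq sequences of GRCm38.p6, 5′ to 3′ on the plus strand, with each CG, the dinucleotide that carries methylation, in capitals.
Dlk1, chr12:109452573-109452822: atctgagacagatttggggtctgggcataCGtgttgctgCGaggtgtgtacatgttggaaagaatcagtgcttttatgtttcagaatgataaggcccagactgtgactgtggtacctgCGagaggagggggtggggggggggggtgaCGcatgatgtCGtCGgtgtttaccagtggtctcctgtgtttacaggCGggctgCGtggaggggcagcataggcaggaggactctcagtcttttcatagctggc
Meg3, chr12:109540746-109540995: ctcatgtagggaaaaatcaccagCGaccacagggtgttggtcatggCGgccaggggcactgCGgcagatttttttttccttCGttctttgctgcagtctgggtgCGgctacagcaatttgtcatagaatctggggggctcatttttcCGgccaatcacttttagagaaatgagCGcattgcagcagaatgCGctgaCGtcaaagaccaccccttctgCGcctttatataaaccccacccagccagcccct
The Dlk1 window held 8 CG and the Meg3 window 10, against a median of 6 over 32841 promoter windows of the same 250 bases. On either strand, the Meg3 window held TGCCGC, the core bound by the imprint-protecting factor ZFP57 when methylated, TATAAA and the cyclic AMP response element TGACGTCA. The Dlk1 window held none of these 3 letter strings. They occurred in 8.68%, 12.4% and 1.55% of all windows. These are matches of letters only; neither methylation nor binding was measured.

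Between the Dlk1 start and the Mirg end, the RefSeq table has 57 microRNA hairpin entries, 54 of them on the plus strand. Of these entries 14 lie within Mirg, 3 within Rian and 1 within Meg3. The mature mmu-miR-1906, listed without a hairpin entry, also lies within Meg3. The table lists 112 mature entries in the whole interval, with 102 different seeds. The deposited counts do not include mature microRNAs. One mature form from Meg3 and a pair from Mirg are printed to show what these transcripts carry, with the seed, bases 2 to 8, in capitals.
mmu-miR-770-5p, within Meg3: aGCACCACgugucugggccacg
mmu-miR-134-5p, within Mirg: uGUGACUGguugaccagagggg
mmu-miR-410-3p, within Mirg: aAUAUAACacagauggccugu

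The depth of the sections was between 61627315 and 117556249 unique molecular identifiers (UMIs, 1 for each captured RNA molecule), and 1890 to 4878 tissue spots were used per section. The median was 12133.5 to 28926.5 UMIs per tissue spot. NEJ146 was processed by its depositors with another program than the other 6 tissues, and its tissue spots were taken as those with at least 8000 UMIs, so tissue and processing cannot be told apart for NEJ146. Levels are counts per 1e+06 UMIs over tissue spots (CPM), and brackets after a level from 1 section give its exact 95% Poisson interval, which covers counting error only. The 4 NEJ146 sections share 1 tumour, so their spread is a spread within that tumour.

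Dlk1 was present in 4 tissues and close to 0 in the other 3. In the 4 NEJ146 sections it stood at 17.2, 48.6, 30.8 and 11.2 CPM, a mean of 26.9 ± 16.6 (SD, n = 4). NEJ634 stood at 108 CPM (105 to 111) and NEJ723 at 107 CPM (104 to 111), and for NEJ687 the level was 42.7 (41.02 to 44.42). NEJ638, NEJ654 and NEJ677 had 5, 7 and 1 Dlk1 UMIs, or 0.0977, 0.165 and 0.0255 CPM. NEJ634 and NEJ723 had overlapping intervals at the upper end, and NEJ687 lay inside the range of the NEJ146 sections. No level of the 4 Dlk1-expressing tissues overlapped those of the other 3.

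Meg3, a long noncoding RNA regarded as a growth suppressor, was detected in all 7 tissues. The NEJ146 sections gave 9.32, 17.5, 11.9 and 8.88 CPM (11.9 ± 3.98, SD, n = 4). Meg3 was at 62.4 CPM in NEJ723 (60.1 to 64.8), 44.9 in NEJ634 (43.1 to 46.6) and 37.5 in NEJ687 (35.9 to 39.1). It remained measurable at 6.70 CPM in NEJ638 (6.01 to 7.45), 2.89 in NEJ654 (2.41 to 3.45) and 1.45 in NEJ677 (1.10 to 1.88). The intervals of neighbouring tissues did not overlap, and the lowest NEJ146 section (8.25 to 9.54) was above NEJ638. In these bulk sums, fewer cells that express a gene and less RNA per cell cannot be told apart.

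Mirg, the distal noncoding RNA that hosts a microRNA cluster, followed at lower counts. Its NEJ146 sections stood at 0.703, 1.49, 0.982 and 0.729 CPM (0.975 ± 0.363, SD, n = 4). NEJ723 stood at 5.06 CPM (4.42 to 5.78), NEJ634 at 4.37 (3.84 to 4.95) and NEJ687 at 3.81 (3.33 to 4.35). NEJ638, NEJ654 and NEJ677 had 15, 6 and 6 Mirg UMIs, at 0.293, 0.141 and 0.153 CPM. The intervals of NEJ723 and NEJ634 overlapped, as did those of NEJ634 and NEJ687.

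**Figure D1:**
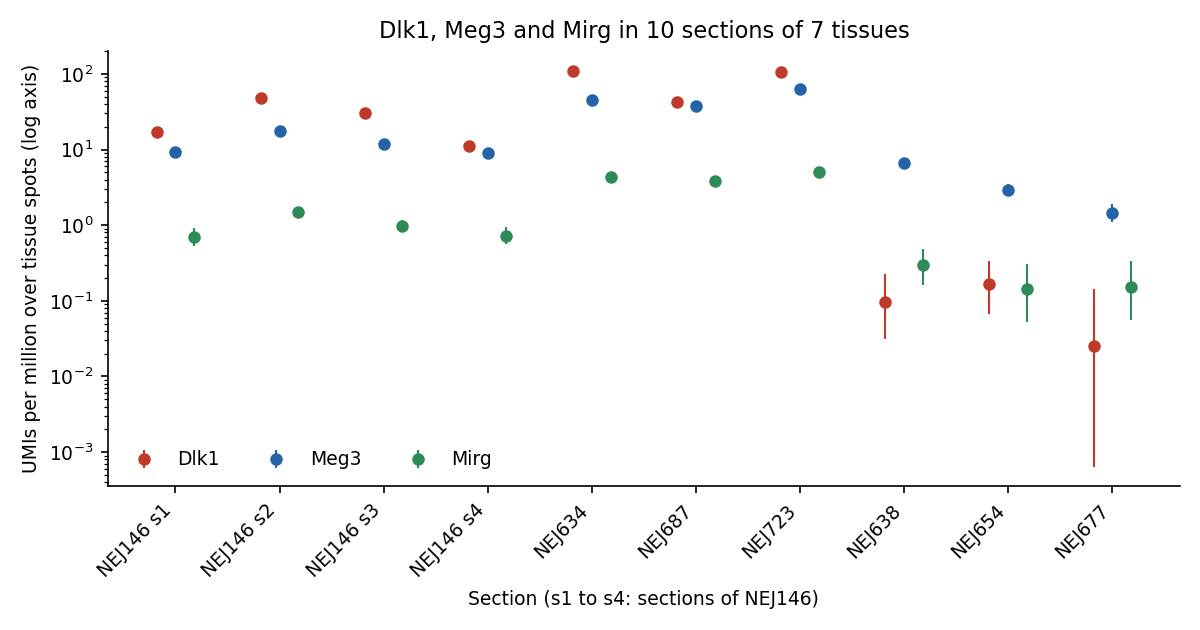
Dlk1, Meg3 and Mirg in CPM over tissue spots (log axis) in each of the 10 sections, 1 point per section, with exact 95% Poisson intervals. Dlk1 falls to 0.165 CPM or less in NEJ638, NEJ654 and NEJ677, whereas Meg3 stays at 1.45 CPM or more in every section.

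Dlk1 and Meg3 therefore kept different proportions across tissues. Per 100 Meg3 UMIs there were 184, 277, 259 and 126 Dlk1 UMIs in the NEJ146 sections, and NEJ634 had 240, NEJ723 had 172 and NEJ687 had 114 (107 to 121). In NEJ638, NEJ654 and NEJ677 there were 1.46, 5.69 and 1.75, with intervals that reached no higher than 12.1. Mirg per 100 Meg3 had a narrower range. It was 7.54, 8.48, 8.26 and 8.21 in the NEJ146 sections. NEJ634 had 9.74, NEJ723 had 8.12 and NEJ687 had 10.2, while the values of NEJ638, NEJ654 and NEJ677 were 4.37, 4.88 and 10.5. The interval of NEJ638 (2.42 to 7.32) lay below those of NEJ634 (8.51 to 11.1) and NEJ687 (8.82 to 11.7), and those of NEJ654 and NEJ677, from 6 Mirg UMIs each, overlapped all others.

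Set against all genes, the lowest of NEJ146, NEJ634, NEJ687 and NEJ723 was divided by the highest of NEJ638, NEJ654 and NEJ677, after adding 1 CPM to each. Of 9546 genes with at least 10 CPM in a tissue, 978 (10.2%) were at least 2-fold higher by this measure. Dlk1 was 24.0-fold higher and belonged to them. The size of this value rests on the added CPM, since Dlk1 was below 1 CPM in all of NEJ638, NEJ654 and NEJ677, and its log2 value of 4.58 became 6.67 with 0.1 CPM added and 2.63 with 5 CPM added. Meg3 was 1.68-fold higher and did not reach 2-fold, since NEJ146 and NEJ638 stood next to each other in its order. Mirg, below 10 CPM everywhere, was 1.53-fold higher. This value too rests on the added CPM, since Mirg was at 0.975 CPM in NEJ146 and 0.293 CPM in NEJ638. Its log2 value of 0.61 ran from 0.17 to 1.45 under the alternatives, the highest with 0.1 CPM added.

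Of 7 other genes around the locus with at least 10 CPM, 0 passed 2-fold in either direction, where 10.2% of all genes did so upwards. Rtl1, the paternally expressed retrotransposon-derived gene between Meg3 and Rian, had 131 UMIs in all and was at 0.149 (mean of 4 sections), 0.354, 0.784 and 0.183 CPM in NEJ146, NEJ634, NEJ687 and NEJ723, against 0.0195 CPM or less in the other tissues. Dio3, the thyroid hormone deiodinase at the distal end, stayed at or below 0.248 CPM, and Begain, proximal to Dlk1, at or below 0.601 CPM. Dio3 did not follow the order of Dlk1. It had 12 UMIs (0.234 CPM) in NEJ638 and 14 UMIs (0.248 CPM) in NEJ634. Its levels in NEJ146, NEJ687 and NEJ723 were 0.116, 0.0348 and 0.0917 CPM. Slc25a47, a liver mitochondrial carrier gene, ran from 206 CPM in NEJ723 to 1185 CPM in NEJ677. Hsp90aa1, a stress-inducible chaperone, was 1.99-fold higher by the same measure and Evl, an actin regulator, 1.68-fold.

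Among imprinted genes outside the locus, 3 of 11 paternally expressed genes passed 2-fold upwards, against 10.2% of all genes. They were Igf2, the fetal growth factor, Peg10 (12.3-fold), a retrotransposon-derived placental gene, and Peg3 (4.11-fold), a zinc finger gene. Among maternally expressed genes 2 of 11 did, namely Grb10 (7.59-fold), an inhibitor of insulin signalling, and Zim1 (2.17-fold). Of 13 genes of imprint maintenance and Polycomb repression 3 did: Dnmt1, the maintenance DNA methyltransferase (2.28-fold), its partner Uhrf1 (2.88-fold) and the histone methyltransferase Ezh2 (2.14-fold). Of 10 Notch pathway genes 0 did in either direction. Several other lists also differed between these tissues: 6 of 7 proliferation genes, 7 of 7 neutrophil genes, 8 of 13 oncofetal liver genes and 6 of 8 erythroid genes were at least 2-fold higher, and 4 of 12 hepatocyte genes at least 2-fold lower, against 445 (4.66%) of all genes. The part of cell makeup in the members' levels was not tested.

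The genes whose levels over the 7 tissues were most like those of Dlk1 were Nfatc2, Nup43, Lgals2, Chd4 and Tmed6, with Pearson r of log2(CPM + 1) from 0.998 downwards. For Meg3 they were Fastkd3, Ephb4, Nap1l4, Phrf1 and Srrt, also from 0.998. Meg3 itself stood at place 2077 for Dlk1 (r = 0.94), of 9546 genes compared over 7 tissues. For Mirg the nearest were Slc12a2, Cdh1, Map2, Hnrnpl and Ylpm1, and Meg3 stood at place 495 (r = 0.97). With 7 tissues that also differ in depth and makeup, these places describe likeness only.

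Within NEJ146 the locus varied between sections more than nearly all genes did. On the log2 scale, section levels had an SD of 0.89 for Dlk1, place 3 of 9477 genes, and 0.41 for Meg3, place 17, against a median of 0.083. Both genes, and Mirg too, were highest in section 2. The order of the other sections was the same for Dlk1 and Meg3.

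On the tissue, both genes of the 2 parental sides gathered in the same areas of NEJ146. In section 2, 602 tissue spots held both Dlk1 and Meg3, 843 Dlk1 alone, 476 Meg3 alone and 2564 neither. When spots were ranked by the Dlk1 level of the spot and its adjacent spots, the upper 10% held 39.5, 43.9, 46.9 and 40.0% of all Meg3 UMIs in the 4 sections, although they held 8.78, 9.67, 10.2 and 8.38% of all UMIs. Meg3 was at 41.9, 79.6, 54.5 and 42.4 CPM in these spots against 6.18, 10.9, 7.04 and 5.82 CPM in the rest. The Dlk1-rich spots also held 47.5, 52.8, 52.2 and 32.8% of all Mirg UMIs, from 28, 75, 60 and 20 UMIs. The Dlk1-rich areas of NEJ146 thus held Meg3 at or above the whole-section level of NEJ687, and the rest of the sections held 5.82 to 10.9 CPM, next to the 6.70 CPM of NEJ638.

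In NEJ634, NEJ687 and NEJ723 the same ranking separated the tissue less. The upper 10% of spots held 18.5, 16.1 and 17.7% of Meg3 UMIs with 8.10, 10.2 and 9.56% of all UMIs. Meg3 was at 102, 59.4 and 115 CPM there against 39.8, 35.0 and 56.8 CPM in the rest. In NEJ634, 1133 spots held both genes and 132 neither.

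**Figure D2:**
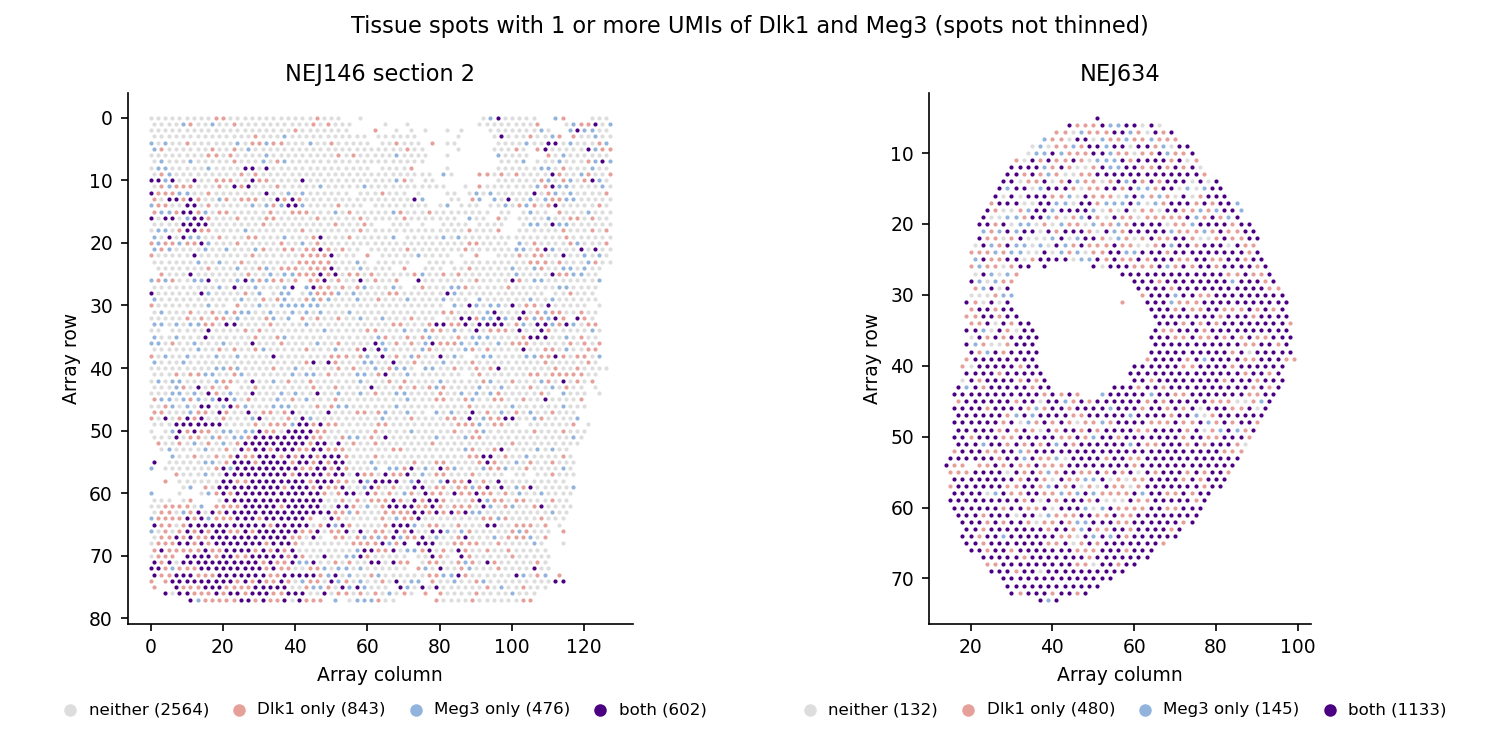
Tissue spots of NEJ146 section 2 and of NEJ634 at their array positions, coloured by whether the spot held both Dlk1 and Meg3, 1 of them or neither, without thinning. In NEJ146 section 2 the 602 spots with both genes crowd into a patch, and in NEJ634 the 1133 such spots cover most of the section.

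Whether the genes shared spots was measured after every spot had been thinned to 5000 UMIs, so that deep spots did not hold more genes by depth alone. The share of spots with both genes was divided by the product of the separate shares. This ratio is 1 when the genes fall in spots independently. It cannot exceed 1 over the larger of the separate shares, so its size depends on how common the genes are. After thinning, Dlk1 was in 6.67, 15.8, 9.28 and 4.68% of spots in the NEJ146 sections. It was in 39.6% in NEJ634, 17.2% in NEJ687 and 38.2% in NEJ723. For Dlk1 and Meg3 the ratio was 3.41, 2.52, 3.05 and 3.98 in the NEJ146 sections (3.19 for the tissue), 1.29 in NEJ634, 1.33 in NEJ687 and 1.13 in NEJ723. In NEJ146 section 1, Meg3 was found in 15.9% of Dlk1-positive and 3.87% of Dlk1-negative spots. In NEJ634 it was found in 27.8% and 17.4%, in NEJ687 in 22.3% and 15.6%, and in NEJ723 in 30.7% and 25.1%. All 4 tissues with at least 100 UMIs of both genes lay above 1, and the mean over tissues was 1.58-fold (log2 0.66). Pairs of other genes were not measured in this way. Of all genes tested, 21.0% had a higher CPM in Dlk1-positive spots of all 4 tissues, so values above 1 are not particular to the locus.

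Pairs with Mirg were also above 1 in all 4 tissues, again with no pairs of other genes to set beside them. Dlk1 and Mirg gave 3.96 in NEJ146, 1.27 in NEJ634, 1.12 in NEJ687 and 1.20 in NEJ723 (mean log2 0.69). Meg3 and Mirg, both from the maternal side, gave 2.96, 1.399, 1.23 and 1.14 (mean log2 0.64). The difference between the pairs across parental sides and the pair within the maternal side was not tested. Flipping signs over the 4 tissues, an exact permutation test (two-sided) gave p = 0.125 for each of the 3 pairs, also after Benjamini-Hochberg adjustment over the 3, which is the smallest p that 4 tissues allow. The size rests on NEJ146: without it the mean log2 for Dlk1 and Meg3 was 0.32.

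Sharing reached into adjacent spots. When Dlk1 in a spot was set against Meg3 in the adjacent spots, the ratios were 2.99 in NEJ146, 1.23 in NEJ634, 1.15 in NEJ687 and 1.09 in NEJ723. Each gene also recurred in its own adjacent spots. For Dlk1 this ratio was 4.66, 3.05, 3.92 and 5.87 in the NEJ146 sections, and 1.24, 1.29 and 1.10 in NEJ634, NEJ687 and NEJ723. For Meg3 it was 2.43, 2.19, 2.23 and 2.97, then 1.27, 1.14 and 1.10. Spots outside the tissue call also shared Dlk1 and Meg3, at 1.31-fold in NEJ634, 1.09 in NEJ687 and 1.11 in NEJ723, close to the ratios on the tissue in NEJ634 and NEJ723. The part of RNA that spread on the slide was not tested.

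**Figure D3:**
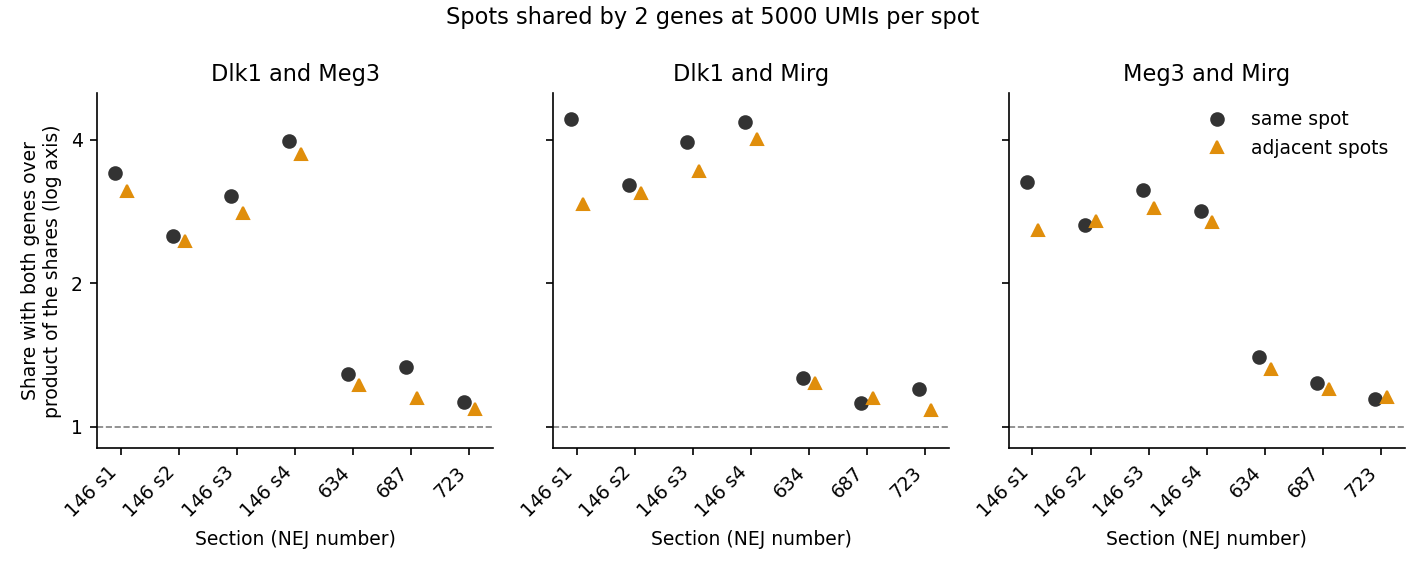
Share of spots with both genes over the product of the separate shares (log axis) for the 3 pairs, in the 4 NEJ146 sections and in NEJ634, NEJ687 and NEJ723, within the same spot and between adjacent spots. The dashed line marks 1, and the NEJ146 sections lie at 2.52 to 3.98 for Dlk1 and Meg3 against 1.13 to 1.33 in the other tissues. Within a spot the ratio cannot exceed 1 over the larger separate share, and Dlk1 was rarer in the NEJ146 sections than in the other tissues shown.

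Meg3 was higher at each step in the number of Dlk1 UMIs in a spot. In spots with 0, 1, and 2 or more Dlk1 UMIs after thinning, Meg3 stood at 8.61, 35.3 and 72.1 CPM in NEJ146. It stood at 36.2, 51.8 and 84.7 CPM in NEJ634, at 33.8, 47.6 and 83.1 CPM in NEJ687 and at 54.6, 67.0 and 94.9 CPM in NEJ723. The levels with 2 or more Dlk1 UMIs were between 72.1 and 94.9 CPM, closer to each other than those without. Mirg did not rise from 0 to 1 Dlk1 UMI in NEJ634 (4.06 and 3.99 CPM) or NEJ687 (3.75 and 3.45 CPM). With 2 or more Dlk1 UMIs it was at 7.25 CPM in NEJ634 and 7.68 CPM in NEJ687. In NEJ146 Mirg stood at 0.683, 2.38 and 7.56 CPM and in NEJ723 at 4.80, 4.99 and 6.95 CPM. Read from the Meg3 side, the relation of Dlk1 and Meg3 showed steps too, which is no separate support. Dlk1 in spots with 0, 1, and 2 or more Meg3 UMIs was at 22.0, 113 and 284 CPM in NEJ146 and at 39.9, 52.7 and 91.7 CPM in NEJ687. Counts were summed over spots, which are not replicates, so these steps carry no test.

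**Figure D4:**
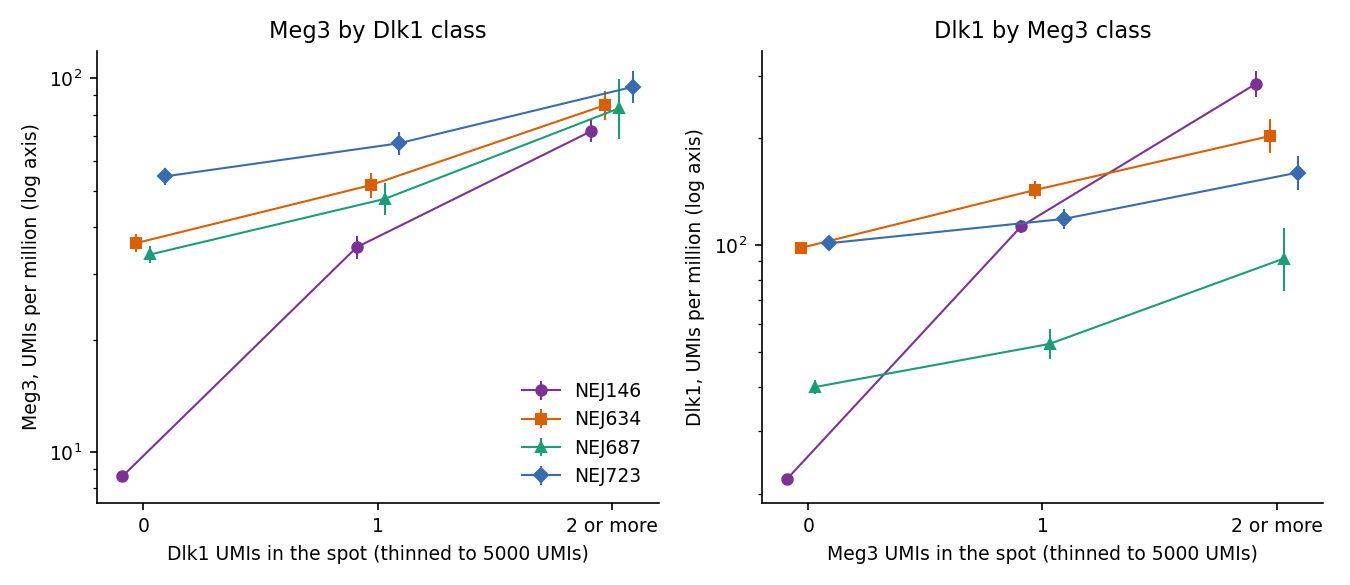
Meg3 by the number of Dlk1 UMIs in the spot, and Dlk1 by the number of Meg3 UMIs, in CPM (log axis) in spots thinned to 5000 UMIs, for each tissue with exact 95% Poisson intervals. Meg3 goes from 8.61 to 72.1 CPM in NEJ146 and from 54.6 to 94.9 CPM in NEJ723.

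Meg3 was still counted where no Dlk1 UMI was found nearby. In NEJ146 spots with no Dlk1 UMI in the spot or any of its 6 adjacent spots, Meg3 was at 4.34, 5.96, 4.28 and 4.80 CPM, against 13.2, 20.5, 14.7 and 12.7 CPM where Dlk1 was near. In NEJ687 the values were 26.8 and 38.2 CPM, from 725 and 3452 spots, and the spots without Dlk1 nearby held fewer UMIs each. In NEJ723 the 160 spots without Dlk1 nearby had 6 Meg3 UMIs, at 50.8 CPM (18.6 to 111). The other 1889 spots were at 60.1 CPM (57.7 to 62.6), so these intervals overlapped. Spots were not thinned here, so shallow spots can lack a Dlk1 UMI by sampling alone. The part of depth in these values was not tested.

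To find what else marked these spots, counts were summed per tissue over Dlk1-positive and Dlk1-negative spots and compared with edgeR's quasi-likelihood test, with tissue as block and Benjamini-Hochberg adjustment over 14799 genes. Of these, 0 were called higher (0%) and 0 lower (0%) in the 4 tissues; the lowest adjusted p was 0.257, and 1190 genes were higher (8.04%) and 1355 lower (9.16%) at an unadjusted p under 0.05. DESeq2 called 13 higher and 43 lower. Meg3 had a log2 fold change of 1.03 (SE 0.29, edgeR adjusted p = 0.257, unadjusted p = 0.0086) and was higher in 4 of 4 tissues, as were 21.0% of all genes. Within single tissues, Meg3 was ranked among the genes with at least 10 CPM in Dlk1-negative spots, and was kept in the ranking of NEJ146 although it stood at 8.61 CPM there. Meg3 had the largest ratio of 8156 genes in NEJ687. It was at place 2 of 7455 in NEJ146, place 5 of 8328 in NEJ723 and place 17 of 8464 in NEJ634. By the fitted log2 fold change over all 14799 genes tested, Meg3 stood at place 104 and Mirg at place 215. Without NEJ146 the log2 fold change of Meg3 was 0.58 with an edgeR adjusted p of 0.045. Mirg was at 0.80 (SE 0.40, adjusted p = 0.340) and, without NEJ146, at 0.17.

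The lists around Dlk1 are given by their medians, with no member called. The median log2 fold change was 0.43 over 7 bile duct genes, 0.36 over 16 oncofetal liver genes and -0.36 over 12 hepatocyte genes, against 0.00 over all genes. It was 0.24 over 6 lymphocyte genes, 0.19 over 12 stellate cell and fibroblast genes, -0.19 over 8 macrophage genes, -0.20 over 9 endothelial genes and -0.27 over 9 erythroid genes, and the part of cell makeup in the Meg3 value was not tested. Of the oncofetal genes, Epcam, an epithelial adhesion molecule of hepatoblasts, was at 1.06, Gpc3, a fetal cell surface proteoglycan, at 0.92 and Igf2bp1, a fetal RNA-binding protein, at 1.59. Krt7, a duct keratin, was at 0.89. Without NEJ146 these values were 0.60 for Epcam, 0.42 for Gpc3, 0.72 for Igf2bp1 and 0.51 for Krt7, and Igf2bp1 was at 2.39 without NEJ723. Cyp2e1, an enzyme of pericentral hepatocytes, was at -0.77 and Tat, a tyrosine-degrading enzyme, at -0.71. Dlk1 is a relative of the Notch ligands, and of 19 Notch genes tested 10 were higher in all 4 tissues, with 21.0% of all genes so and with a median of 0.11. The ligand Jag2 was at 0.47, the ligand Jag1 at 0.41, the receptor Notch3 at 0.29 and the target Hes1 at 0.22. Without NEJ146 Jag1 was at 0.23 and Notch3 at 0.12.

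Meg3-positive spots were compared in the same way in 6 tissues; NEJ677, with 57 Meg3 UMIs, was left out, and NEJ638 and NEJ654 contributed 109 and 38 positive spots. Of 15091 genes, 318 were higher (2.11%) and 768 lower (5.09%) by edgeR's adjusted p. DESeq2 called 19 higher and 486 lower, and a fit without the tissue block called none, with 22 genes at an unadjusted p under 0.05. Positive spots held 19780 UMIs on average in NEJ146 against 21224 in negative spots, and 26341 against 30871 in NEJ634. The part of spot depth in the calls was not tested beyond the thinning.

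The other members were among the genes that rose. For Dlk1 this is the relation with Meg3 seen in the Dlk1 classes, read from the other side and over more tissues. There the edgeR adjusted p of Meg3 was 0.257. Mirg rose by a log2 fold change of 0.91 (SE 0.21, edgeR adjusted p = 0.0105) and was higher in 6 of 6 tissues, as were 7.12% of all genes, from 0.82 to 3.93 CPM in NEJ146 and from 3.89 to 6.58 CPM in NEJ634. In NEJ638 and NEJ654 the positive spots held 1 Mirg UMI each. Without NEJ146 the log2 fold change of Mirg was 0.47 and it was not called (edgeR adjusted p = 0.054). Dlk1 rose by 0.94 (SE 0.20, adjusted p = 0.0045), from 22.0 to 129 CPM in NEJ146, 98.3 to 152 in NEJ634, 39.9 to 57.2 in NEJ687 and 101 to 127 in NEJ723. In NEJ638 and NEJ654 the few Dlk1 UMIs all fell in Meg3-negative spots. DESeq2 gave Dlk1 an adjusted p of 0.171, and without NEJ146 its edgeR log2 fold change was 0.44. Dlk1 had the largest ratio of 8148 genes in NEJ687. It was at place 2 of 7482 in NEJ146, 51 of 8481 in NEJ634 and 84 of 8312 in NEJ723. By the fitted log2 fold change over all 15091 genes tested, Dlk1 stood at place 133 and Mirg at place 154.

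Of 7 bile duct genes 4 rose and 0 fell (median 0.78, against -0.02 over all genes). They were Cldn7, a tight junction claudin (0.88), Krt7 (0.87) and Krt19 (0.80), keratins of duct cells, and Spp1, osteopontin (0.43). Of 16 oncofetal genes 5 rose and 0 fell (median 0.23), namely Epcam (0.93), the tetraspanin Tspan8 (0.79), Gpc3 (0.59), the stem cell marker Prom1 (0.51) and Cd24a (0.41). Without NEJ146 Cldn7 was at 0.24 and Epcam at 0.61, both still called, and Gpc3 at 0.14 and not called. Gpc3 was also not called without NEJ634, NEJ638 or NEJ654, nor Cldn7 without NEJ638 or NEJ654. Epcam went from 6.39 to 24.6 CPM in NEJ146 and from 4.94 to 10.1 CPM in NEJ638. In NEJ634 it went from 47.5 to 88.5 CPM and in NEJ723 from 53.8 to 74.3 CPM. It moved less in NEJ687 (2.07 to 2.24 CPM) and NEJ654 (2.65 to 3.17 CPM).

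Of 12 stellate cell and fibroblast genes 4 rose, 1 fell and 7 were not called (median 0.22). The collagens Col1a1 (0.61), Col1a2 (0.53) and Col3a1 (0.37) and the contractile actin Acta2 (0.46) rose, and Reln, a glycoprotein made by stellate cells, fell by 0.26. Of 19 Notch genes the ligands Jag2 (0.60) and Jag1 (0.46) rose and 0 fell (median 0.10). Of 15 alternative edgeR fits that kept the tissue block, Reln kept its call in 5, Jag2 in 6 and Jag1 in 9.

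Hepatocyte genes fell. Of 12, 9 fell and 0 rose, with a median of -0.30. The periportal cytochrome Cyp2f2 was at -0.55, Tat at -0.50, the drug-metabolising Cyp3a11 at -0.42 and the urea cycle enzyme Cps1 at -0.38. Of 8 macrophage genes 4 fell and 0 rose, all of them known from Kupffer cells, the resident macrophages of liver: Vsig4 (-0.33), Marco (-0.30), Clec4f (-0.27) and Cd5l (-0.23). Without NEJ634 Marco was at -0.16, Clec4f at -0.17 and Cd5l at -0.15, none of them called, and in the 15 alternative fits Marco kept its call in 8 and Cd5l in 7. Clec4g, of sinusoidal endothelium, fell too (-0.31), the only call among 9 endothelial genes.

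Of 17 paternally expressed imprinted genes outside the locus 3 rose, where 2.11% of all genes rose and 5.09% fell. They were the growth-regulating zinc finger gene Plagl1 (0.53), Usp29 (0.48) and Nnat (0.43). Slc38a4, an amino acid transporter gene, fell by 0.22. Of 11 maternally expressed genes Zim1 (0.49) rose and 0 fell. Usp29 kept its call in 4 of the 15 alternative fits, and Nnat and Zim1 in 7 each. Of 14 neighbours of the locus 0 rose and Slc25a47 fell by 0.28. The neighbours Dio3 (1.44, edgeR adjusted p = 0.072), Begain (0.87) and Rtl1 (0.63) were not called, and Begain and Rtl1 changed direction with the setting. In the lists of imprint maintenance, proliferation, erythroid, neutrophil and lymphocyte genes 0 were called.

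**Figure D5:**
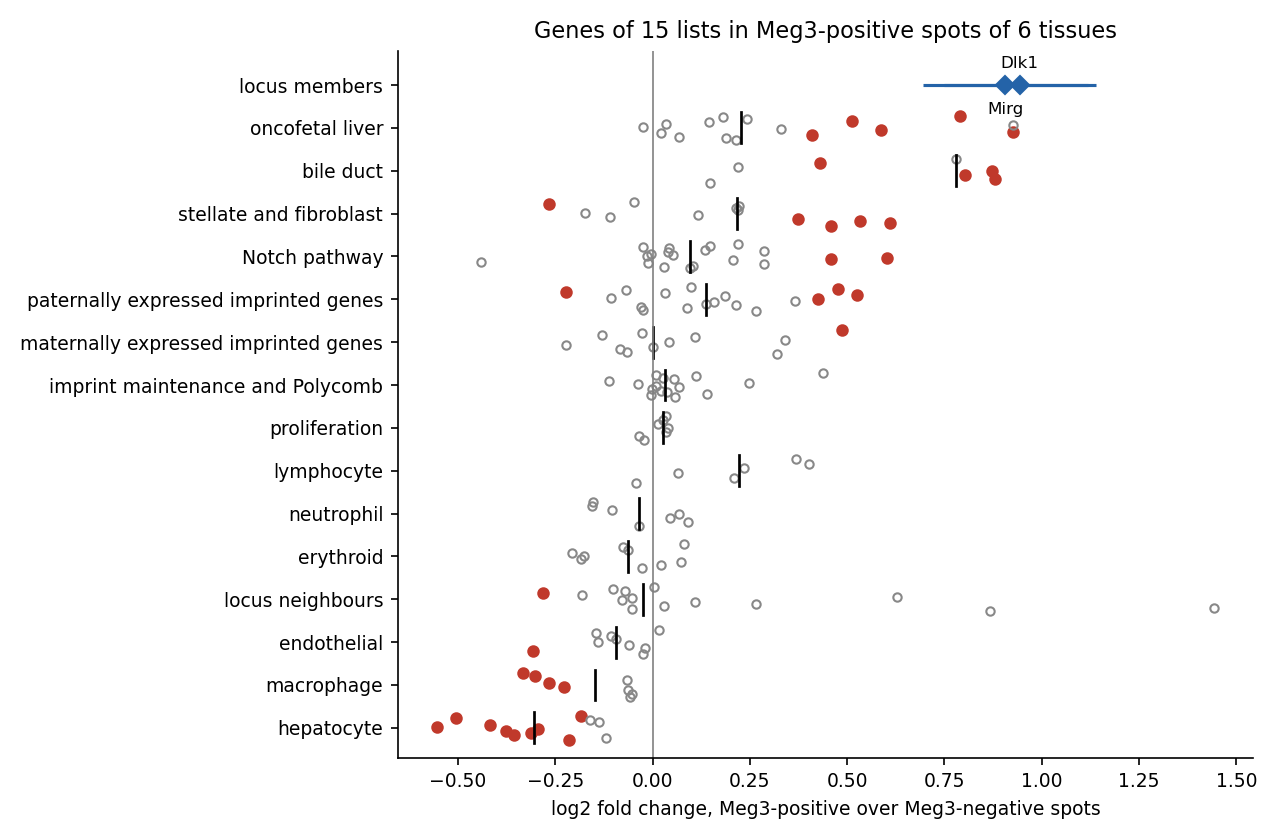
Log2 fold change between Meg3-positive and Meg3-negative spots, by edgeR with tissue as block, for each tested gene of the lists and for Dlk1 and Mirg, with called genes (adjusted p under 0.05) marked. Hepatocyte genes lie to the left (median -0.30), and bile duct genes to the right (median 0.78), as do Dlk1 (0.94) and Mirg (0.91).

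Over all genes tested, 95 genes rose and 173 fell with the same direction in all 6 tissues. In the 38 positive spots of NEJ654, 1 UMI amounts to 1.59 CPM, so the direction of low genes there can rest on a single UMI. The 10 with the largest rises were Ccl21a (1.45), a chemokine of lymphatic vessels and portal stroma, Lgi2 (1.11), the prostaglandin receptor gene Ptger3 (1.05), Epcam, Mirg, Glipr1 (0.89), the integrin gene Itgae (0.88), Cldn7, and the myeloid genes Clec10a (0.87) and Cx3cr1 (0.83). Ccl21a was carried by NEJ638, from 9.47 to 56.3 CPM, NEJ146, from 12.03 to 26.02 CPM, and NEJ654, and was under 0.5 CPM in the other tissues. It did not hold with 2 or more Meg3 UMIs in the positive class, and Itgae, below 2 CPM everywhere, did not hold in every thinning. Without NEJ146 Lgi2 was at 0.63 and Glipr1 at 0.56, both called, and Clec10a at 0.50 and not called. Itgae kept its call in 2 of the 15 alternative fits and Clec10a in 6. Among the largest falls were those of the transporter gene Slc22a26 (-0.86), Gm17634 (-0.78), the lipoxygenase gene Alox12 (-0.73), Gm15441 (-0.69), Neu3 (-0.66), the sulfotransferase genes Sult2a5 (-0.56) and Sult2a6 (-0.55), Pck1 (-0.56), which encodes the gatekeeper enzyme of gluconeogenesis, and Cyp2f2 (-0.55). Of these, Gm15441 kept its call in 1 and Neu3 in 4 of the 15 alternative fits. Pck1 went from 338 to 214 CPM in NEJ146, from 190 to 115 in NEJ634 and from 557 to 441 in NEJ654. In NEJ687 it went from 267 to 212 CPM, and it moved less in NEJ723 (11.2 to 10.4 CPM) and NEJ638 (1437 to 1328 CPM). Cyp2f2 was nearly level in NEJ723 (8.18 to 8.12 CPM) and NEJ638 (749 to 729 CPM) and fell more in the other tissues. Of the 48 genes named here as called, 14 kept their call in all 15 alternative edgeR fits that kept the tissue block: Dlk1, Epcam, Krt7, Krt19, Spp1, Tspan8, Glipr1, Cyp2f2, Cyp3a11, Cps1, Tat, Sult2a5, Pck1 and Slc25a47. Without NEJ634, 28 of the 48 kept it. The counts of calls moved with single tissues, from 134 to 407 genes higher and from 266 to 895 genes lower when 1 tissue was left out.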

How the data were processed

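Whole-number UMI counts per gene and spot were deposited for 10 Visium sections; per the labels NEJ146 was processed with Cell Ranger 6.0, with no build given, and the others with Space Ranger 1.3 on mm10. Tissue spots followed the deposited in-tissue call, or at least 8000 UMIs in NEJ146. Counts were summed over tissue spots to CPM. Spot sharing used 5000 UMIs per spot with the exact hypergeometric expectation, and shallower spots were left out; 3 pairs were tested in place of 6 because Rian matched no row. Spot classes (1 or more UMIs after thinning) were compared with edgeR 4.0.16 (R 4.3.3; filterByExpr, TMM, tissue as block) on raw sums, with DESeq2 1.42.0 as an alternative; the class gene itself was left out. Tests ran over tissues because spots share their section. For edgeR the spread is that left after the tissue block, estimated in part from all genes together. Its p-values therefore do not rest on the spread of a gene's own class difference between tissues alone. On simulated data with 200 changed genes, the Meg3 comparison (15091 genes) recovered 83% of 2-fold and 71% of 1.4-fold changes. Of its calls, 7.8% were on unchanged genes. The Dlk1 comparison (14799 genes) recovered 91% and 58%, with 5.7%. The simulation gave a changed gene the same effect in every tissue, whereas measured effects differed between tissues. These shares therefore do not give the error rate of the measured calls. Genes named beside the members were the 10 largest rises and 10 largest falls called in the same direction in every tissue, up to 4 genes per list and the locus neighbours; 1 gene that this rule names is not reported here. The members and lists were chosen with earlier results of these data known. Intervals cover counting error only. Alternatives changed the spot call, depth, thinning, filters, block and tissues.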

Additional observations from a re-analysis of the deposited data

Results flagged for a closer look

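The members were also present in spots outside the tissue call, which the comparisons did not use, above the level that a count of 3 allows. Such spots held 34739289 of 91275401 UMIs in NEJ634 and 26156263 of 69798060 in NEJ723, but 4199293 of 61627315 in NEJ687. In NEJ634, 2203 of 3102 such spots had at least 5000 UMIs. Outside the call Dlk1 was at 96.0 CPM in NEJ634, 97.2 in NEJ723 and 33.8 in NEJ687, which is 0.890, 0.905 and 0.792 of the level on the tissue. Meg3 was at 40.2, 44.9 and 36.2 CPM in the same order, and Mirg at 3.11, 3.59 and 3.81 CPM. Off the tissue of NEJ638, NEJ654 and NEJ677, Dlk1 was at 0.260, 0.187 and 0.195 CPM, from 5 to 6 UMIs each, and Meg3 at 6.08, 2.90 and 1.21 CPM. Mirg was at 0.467 CPM in NEJ638 and 0.218 CPM in NEJ654. The source of these UMIs was not tested.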

How the results depend on the processing

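Positive and negative spots of a tissue were paired by the tissue block. By replicate number, no paired analysis was possible because only NEJ146 has more than 1 section, numbered in accession order. The ratios of spot sharing and of adjacent spots kept their direction under all 78 alternatives (Dlk1 and Meg3 in the same spot 0.32 to 0.82 on the log2 scale). Leaving out a section or a tissue could not turn them, since every section and tissue compared lay above 1. The lower limit on UMIs of each gene added no tissue. Only the settings of depth and spot call could have changed the direction. For the tissue order, Mirg reached a log2 gap of 1.45 with a pseudocount of 0.1 CPM; the genes at least 2-fold higher numbered 586 with a pseudocount of 5 CPM and 522 with a 50 CPM filter. For Dlk1 classes, the 0 genes higher and 0 lower became 19 and 102 with 2 or more UMIs in the positive class, 13 and 43 with DESeq2, and 7 and 18 without a filter on low genes; leaving out 1 tissue gave 0 to 1 higher (1 without NEJ146) and 0 to 6 lower (6 without NEJ687). For Meg3 classes, the counts were 72 and 418 at 2000 UMIs per spot, 19 and 486 with DESeq2, 0 and 0 without the tissue block, 420 lower with 2 or more UMIs, and 1449 lower without a filter; leaving out 1 tissue gave 134 to 407 higher and 266 to 895 lower, with 134 and 266 without NEJ634, 177 and 375 without NEJ638, 367 lower without NEJ146 and 412 lower without NEJ654. Of 48 genes named as called in Meg3 classes, 28 to 45 kept their call when 1 tissue was left out (28 without NEJ634, 32 without NEJ638 or NEJ654, 38 without NEJ146), 34 to 39 under other seeds, 17 at 2000 UMIs and 0 without the block; DESeq2 gave 19 of them an adjusted p and kept 12. Mirg lost its call at 2000 UMIs (edgeR adjusted p = 0.078), with another thinning seed (0.094), without NEJ146 (0.054) and without the block. Ccl21a turned to -0.27 with 2 or more UMIs, and Itgae to -0.089 with another thinning seed and -0.54 at 2000 UMIs. Begain in Meg3 classes, at 103 UMIs in all, turned to -0.31 and -0.96 with other thinning seeds, -0.36 at 2000 UMIs and -0.033 with deeper thinning, and Rtl1 ran from -0.48 (without NEJ146) to 1.20 when 1 tissue was left out. The cause was not tested. Counts of 1 to 15 UMIs limit Dlk1 and Mirg in NEJ638, NEJ654 and NEJ677, which did not reach the 100 UMIs of each gene that a tissue needed for the comparison of spot sharing.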

Other observations

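Some maternally expressed genes of distal chromosome 7 did not share the order of Meg3. In NEJ723, where Meg3 was at 62.4 CPM, H19 was at 11.96 CPM against 6062 in NEJ146, 2872 in NEJ634 and 9068 in NEJ687. The growth inhibitor gene Cdkn1c was at 0.527 CPM there against 43.7, 21.2 and 52.2, and Phlda2, a placental growth regulator, at 0.0687 CPM against 18.03, 9.82 and 34.0. Tssc4, of the same domain as Cdkn1c and Phlda2, was at 26.4 CPM there against 18.2, 24.02 and 31.2. The paternally expressed Igf2, next to H19, was at 404 CPM in NEJ723, against 81.9, 267 and 435 CPM. Each tissue but NEJ146 has 1 section, so these are values of single sections, with no test.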
